A study of Labroides dimidiatus with 23 samples.

Results

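Forebrain H3K27ac was compared between cleaner wrasses (Labroides dimidiatus) that had been familiarised with a client fish before a social preference test and controls for which both clients were new, in libraries whose titles carry the number 30. The comparison rests on 10 of the 23 libraries of the series. The 5 familiar libraries are LD17, LD46, LD48, LD71 and LD72, chosen because their titles hold the familiar code and the number 30. The 5 control libraries are LD43, LD44, LD45, LD69 and LD70, whose titles hold the control code and the same number. The familiar library LD18, also labelled 30, was left out by the rule for its low number of peaks. All fish were adults, and no genotype, strain or agent is named in the labels. No unit is given for the number 30, which is called the time label here. The other time label is 120, with 6 familiar and 6 control libraries. The labels number the libraries but do not say which fish each came from, so the spread behind a p-value may be technical. No annotation was used here, so the tissue could not be checked against marker genes and regions are given by position only. Positions count from 1, and the genome build was not stated in the labels or files used.

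H3K27ac is acetylation of lysine 27 on histone H3, placed by the acetyltransferases p300 and CBP and removed by histone deacetylases. It marks active promoters and enhancers, and long acetylated domains are known to lie over genes with high activity in a tissue. In the vertebrate brain, neuronal activity is known to be followed by new acetylation at enhancers of activity-regulated genes. Cleaner wrasses eat parasites from client fish, and their recognition of individual clients is studied as a form of social memory between species. CUT&RUN maps a mark by letting an antibody bring a nuclease to chromatin and sequencing the fragments that are cut free.

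The files are broad-peak lists, 1 per library, and hold no read counts, so depth is unknown and no counting interval can be given. The values below are percentages of a region covered by a library's peaks, called its cover, and do not measure signal height. The 10 lists held between 42550 and 46913 peaks, against 7077 in LD18. Among the 10 libraries, LD45 stood apart. Its median Jaccard index (shared covered length over joint covered length) with the other 9 was 0.542, while the other libraries lay between 0.630 and 0.649. LD45 alone lacked 1470 regions that were present in the other 9, against 162 to 647 for each other library. Its index was highest with LD48, at 0.613, and 0.576 or less with the other 8. Several results are given with and without LD45 and LD48.

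Whole peak lists of familiar and control fish overlapped in each of 4 measures. Familiar libraries had 42704 peaks in LD17, 46565 in LD46, 46913 in LD48, 46144 in LD71 and 44737 in LD72. Control libraries had 43435 in LD43, 42550 in LD44, 46441 in LD45, 43486 in LD69 and 46361 in LD70. The lowest value belonged to a control and the highest to a familiar library, with the rest intermixed. Peaks of 10 kb or longer numbered 1119 ± 129 (SD, n = 5) in familiar and 1113 ± 81.1 (SD, n = 5) in control libraries (two-sided exact permutation test, adjusted p = 0.952). The median peak width was 1061 ± 38.8 bp (SD, n = 5) in familiar fish and 1067 ± 27.0 bp (SD, n = 5) in controls, with the same adjusted exact permutation p as for peak number and covered length. LD72 had the lowest covered length, 82.1 Mb, the narrowest peaks, 1000 bp, and the fewest peaks of 10 kb or longer, 924. The smallest p this test can reach with 5 against 5 libraries is 0.00794. The sign of the difference is not stable: covered length differed by 0.969 Mb over all 10 libraries, by -0.0518 Mb without LD48 and by 3.04 Mb without LD72.

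**Figure D1:**
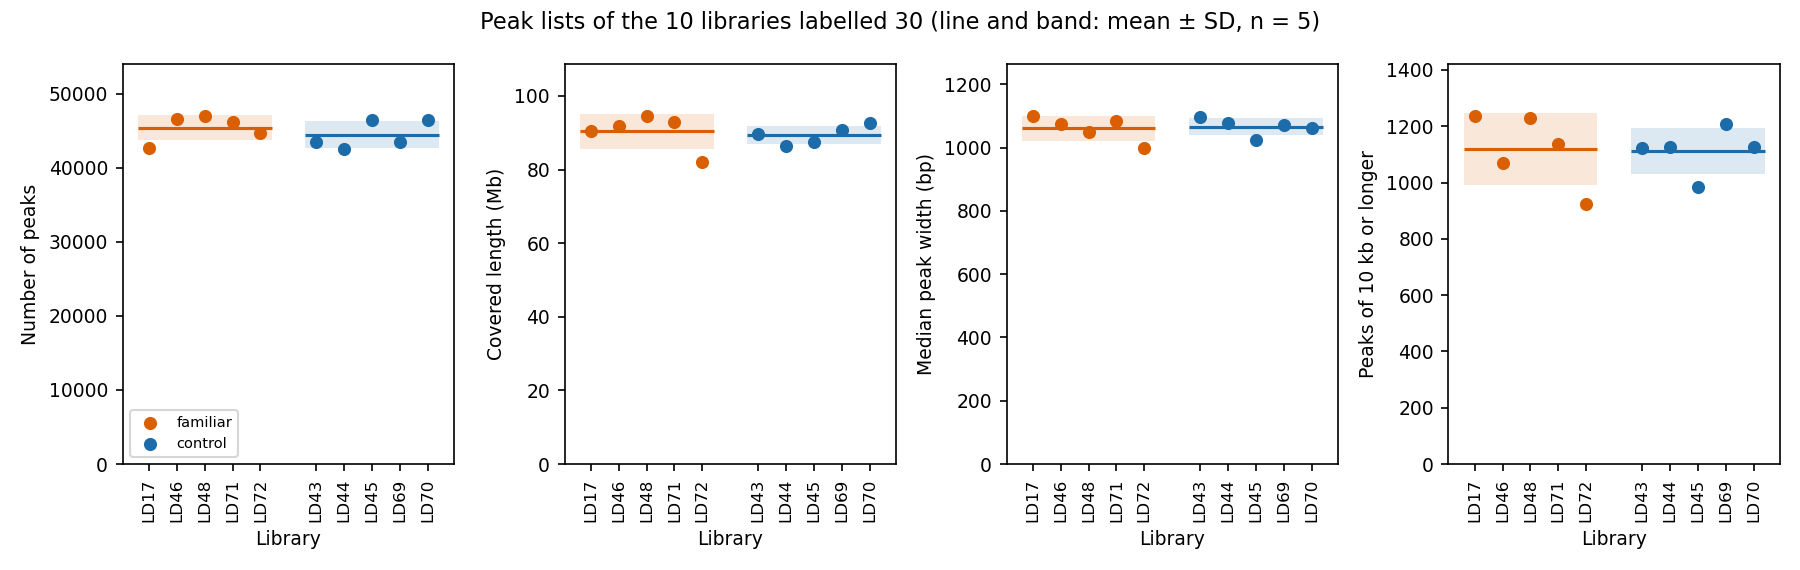
Number of peaks, covered length in Mb, median peak width in bp and number of peaks of 10 kb or longer (vertical axes) for each library labelled 30 (horizontal axis), familiar in orange and control in blue. Points are libraries, lines are means and bands are ± SD of 5 libraries; the groups overlap in each panel.

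Most regions were found about equally often in familiar and control fish. Of 52979 regions, 8652 (16.3%) were present in all 10 libraries, where present means that peaks cover at least 50% of the region. These shared regions spanned 54.4 Mb and had a median length of 3103 bp, against 1282 bp over all regions. In 42733 regions (80.7%) the number of libraries with the region differed by at most 1 between the groups. This was fixed in advance for part of them: 8652 were present in all 10 libraries and 980 in none. Regions present in 1 library alone, or in all but 1, could not differ by more either. A region was present in all 5 familiar libraries 12245 times and in all 5 control libraries 11008 times. Of the former, 1470 were present in every library but LD45.

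Regions that differed by many libraries were few in both directions. At the far end, 6 regions (0.0113%) were present in 5 familiar and 0 control libraries, and 7 (0.0132%) in 0 familiar and 5 control libraries. One step in, 76 regions (0.143%) were present in 4 familiar and 0 control libraries, and 44 (0.0831%) in the reverse case. Summed over both directions of a gap, counts fell with each further library of difference, while single cells near the diagonal did not all do so.

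**Figure D2:**
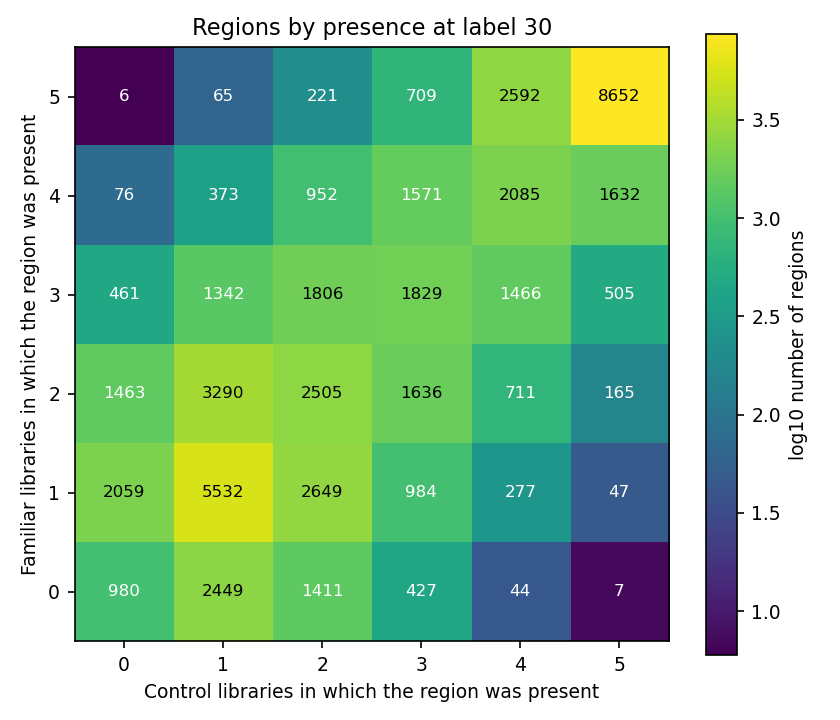
Number of regions by the count of control libraries (horizontal axis) and familiar libraries (vertical axis) in which each was present; colour is the log10 of the number printed in each cell. Counts are largest at 5 and 5 (8652 regions) and smallest in the corners at 5 and 0 (6 and 7 regions).

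Pairs of lists within and across the groups overlapped to a similar degree. The Jaccard index averaged 0.632 over 10 pairs of familiar libraries, 0.605 over 10 pairs of control libraries and 0.626 over 25 pairs across groups. Without LD45 and LD48 the averages were 0.630, 0.650 and 0.644. The order of familiar and control pairs thus turned when these libraries were set aside. The closest pair of all, LD17 and LD69 with 0.665, joined a familiar and a control library.

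In the regions present in all 10 libraries, cover was nearly the same in both groups. Peaks covered on average 80.8% of such a region in familiar and 80.7% in control libraries, over 8597 regions that entered the test. The difference lay within 10 percentage points in 7566 of them (88.0%). LD72 had the lowest mean, 76.7%, and LD71 the highest, 82.9%, and both are familiar libraries. Being present everywhere keeps cover between 50 and 100% and so limits how far these regions can differ.

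No region passed the adjusted threshold for familiar against control fish. Percent cover was tested with limma on 52924 regions in 1 model with all 22 kept libraries (those of both time labels except LD18), and 0 regions (0%) had a Benjamini-Hochberg adjusted p under 0.05. Before adjustment, p was under 0.05 in 1586 regions (3%), with higher cover in familiar fish in 912 (1.72%) and lower cover in 674 (1.27%). That share is below the 0.05 that a test whose model holds gives without any difference. The count by itself is thus no sign of a difference between the groups. By presence alone, Fisher's exact test left 0 regions after adjustment and 245 before it, 147 of them more often present in familiar fish. The smallest p this test can give is 0.00794, reached by 13 regions. With 52924 tests, far more regions would have to reach it together for any to pass, so the 0 after adjustment says little. The median difference over all regions was 0.444 points. The lean toward higher cover in familiar fish depended on single libraries: without LD44 the unadjusted counts were 756 higher and 907 lower, and without LD69 they were 980 and 982. Without LD45 and LD48 they were 981 and 942, with a median difference of 0 points. Without LD72 the lean widened to 1457 higher and 602 lower.

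Short regions had the widest errors, and most regions at an unadjusted p under 0.05 were short. Among 20660 regions under 1 kb, 491 (2.38%) were higher and 376 (1.82%) lower in familiar fish at an unadjusted p under 0.05. Among 21581 regions of 1 to 3 kb these were 349 and 257. The counts were 69 and 41 of 8574 regions of 3 to 10 kb, and 3 and 0 of 2109 regions of 10 kb or longer. The median standard error of a difference was 20.8 points in the shortest class and 9.33 points in the longest. Differences were narrower too: from the 5th to the 95th percentile they ran from -34.1 to 35.8 points under 1 kb and from -7.56 to 10.6 points at 10 kb or longer. By the other measure, cover without overlap between the groups, short regions were the less common: 17 of 79 higher (21.5%) and 12 of 59 lower regions (20.3%) were under 1 kb, against 39.0% of all tested regions.

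**Figure D3:**
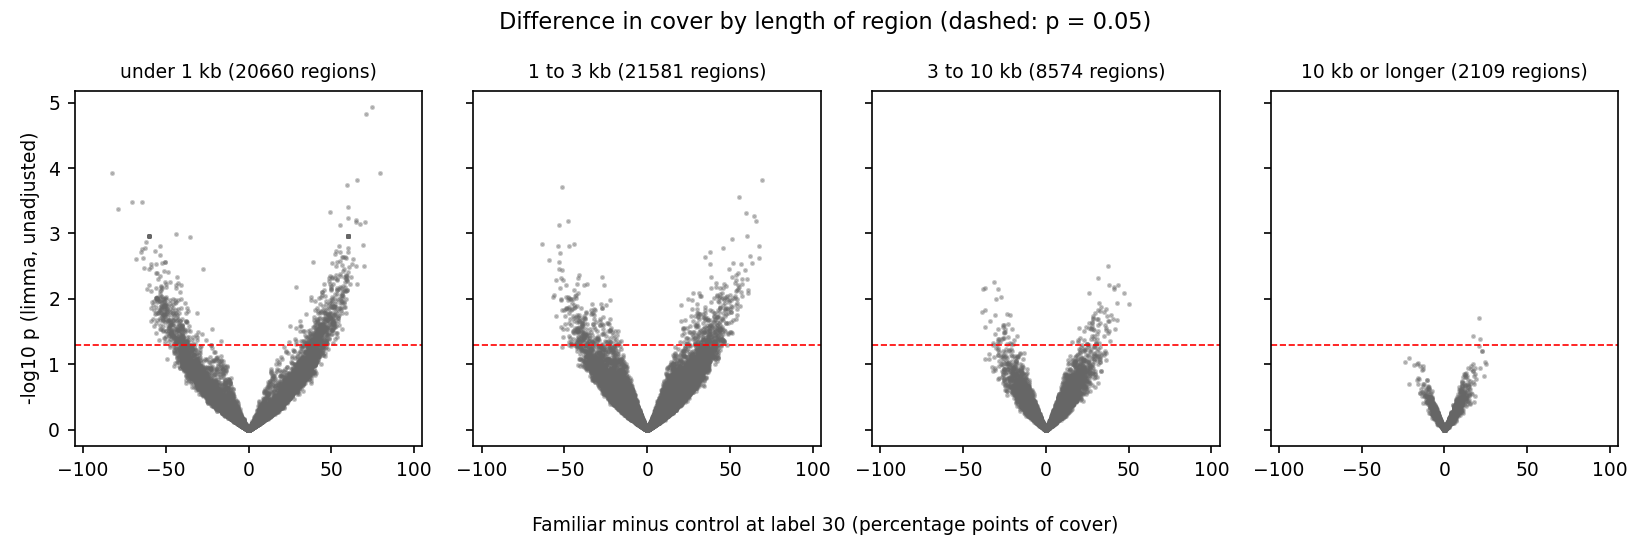
Difference in cover, familiar minus control at the time label 30 in percentage points (horizontal axis), against -log10 of the unadjusted limma p (vertical axis), in 1 panel per length class. Each point is a region and the dashed line marks the unadjusted threshold of 0.05; the spread of differences narrows from the shortest to the longest class.

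Mean cover per length class did not separate the groups. Under 1 kb it was 29.4% ± 3.45 (SD, n = 5) in familiar and 28.9% ± 3.93 (SD, n = 5) in control libraries (two-sided exact permutation test, adjusted p = 0.897). For 3 to 10 kb the means were 67.1% ± 3.596 and 65.6% ± 2.81 (SD, n = 5 each, adjusted exact permutation p = 0.762). LD45 combined the lowest cover of regions of 10 kb or longer, 71.5%, with the second highest among controls for regions under 1 kb, 32.6%. By chromosome, the share of covered length had its lowest p on chromosome 13, at 4.52% ± 0.0340 (SD, n = 5) in familiar and 4.46% ± 0.0351 (SD, n = 5) in control libraries. Its two-sided exact permutation p was 0.0714, and 0.968 after adjustment over 24 chromosomes.

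The 10 regions with the smallest p among those higher in familiar fish, F1 to F10, were places with a peak in at least 4 of 5 familiar and at most 1 of 5 control libraries. Region F1, at chr22:2849910-2850433 and 524 bp long, was covered by 0% in LD17, 71.8% in LD46, 100% in LD48, 100% in LD71 and 100% in LD72. No control library had a peak there, and LD17 is the familiar library that had none either. The group means were 74.4% ± 43.3 and 0% ± 0 (SD, n = 5 each), and familiar minus control was 74.4 points with an SE of 13.2 (adjusted p from limma = 0.395). The spread in this fit is pooled with libraries of the other time label, none of which had a peak in F1. When only the libraries labelled 30 were fitted, the difference was the same and F1 did not pass the adjusted threshold. Without LD17 the adjusted p was 2.58e-06. Leaving out the library that lacks a peak narrows the spread of its group by construction, here and in the regions that follow.

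Region F2, at chr6:32979780-32980032 and 253 bp long, was covered by 85.8% in LD17, 100% in LD46, 100% in LD48, 68.0% in LD71 and 0% in LD72, and by 0% in each control library. Here LD72 is the familiar library without a peak. The difference was 70.8 points with an SE of 12.8 (adjusted p from limma = 0.395), and the adjusted p was 8.24e-06 without LD72. F2 also had no peak in any library of the other time label. It did not pass the adjusted threshold when only the libraries labelled 30 were fitted.

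Region F3, at chr4:16492687-16493398, was covered in each familiar library: 85.5% in LD17, 93.5% in LD46, 79.6% in LD48, 95.1% in LD71 and 100% in LD72. Among controls, LD69 had 57.3% and the other 4 had 0%. The groups did not overlap, and the difference of 79.3 points with an SE of 17.005 (adjusted p from limma = 0.929) was the widest among F1 to F10. Over all tested regions, 79 (0.149%) were higher in familiar fish without overlap and 59 (0.111%) lower.

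Regions F4, F8 and F10 had no peak in any control library. F4, at chr20:14949439-14950199, was covered by 69.1% in LD17, 62.7% in LD46, 95.1% in LD48, 100% in LD71 and 0% in LD72. F8, at chr9:14840914-14841750, had 38.2% in LD17, 77.2% in LD46, 83.8% in LD48, 100% in LD71 and 0% in LD72. F10, at chr3:27174893-27176006, had 100% in LD17, 73.1% in LD46, 0% in LD48, 100% in LD71 and 24.4% in LD72. LD72 lacked a peak in F4 and F8, and LD48 in F10.

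In regions F5, F6, F7 and F9 a single control library carried the cover of its group. F5, at chr11:19230088-19231730, was covered by 17.3% in LD17 and by 77.1% to 100% in the other 4 familiar libraries, against 27.1% in LD70. F6, at chr20:5416367-5416987, was covered by 0% in LD48, 65.5% to 100% in the other familiar libraries and 38.5% in LD70. F7, at chr1:8370389-8372129, was covered by 30.5% to 83.0% in familiar libraries and 16.7% in LD70, without overlap. F9, at chr1:7391779-7392184, was covered by 100% in LD17, 55.7% to 58.4% in LD46, LD48 and LD71, 0% in LD72 and 25.9% in LD69. The limma adjusted p of F4 was 0.0103 and that of F9 0.0257 without LD72, and that of F6 was 0.00294 without LD48. All of F3 to F10 stood at 0.929 with the 22 kept libraries. None of them passed the adjusted threshold when only the libraries labelled 30 were fitted.

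The 10 regions with the smallest p among those lower in familiar fish, C1 to C10, had a peak in each control library in 7 of 10 cases, while F1 to F10 had one in each familiar library in 3 of 10. Region C1, at chr22:18042014-18042420 and 407 bp long, was covered by 64.1% in LD43, 82.8% in LD44, 93.1% in LD45, 91.6% in LD69 and 80.1% in LD70, and by 0% in each familiar library. It is the sole region (0.00189% of those tested) present in all 5 libraries of a group and without any covered base in the other, and no region (0%) met this in the opposite direction. The difference was -82.4 points with an SE of 17.7 (adjusted p from limma = 0.929), and the adjusted p was 0.0162 when only the 10 libraries labelled 30 were fitted.

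Region C5, at chr6:2006795-2007447 and 653 bp long, was covered by 58.3% in LD43, 99.5% in LD44, 97.9% in LD45, 100% in LD69 and 69.2% in LD70. LD72 had 31.4% and the other familiar libraries 0%, so the groups did not overlap. The difference was -78.7 points with an SE of 19.0 (adjusted p from limma = 0.929). Region C4, at chr15:23935429-23936002, was covered by 65.5% in LD43, 64.5% in LD44, 100% in LD45, 70.7% in LD69 and 67.9% in LD70, again with cover in LD72 alone among familiar libraries (45.99%).

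Regions C2, C6, C7 and C8 were partly covered in some familiar libraries and more widely in each control library. C2, at chr17:8014324-8016241, was covered by 32.4% to 92.5% in control libraries, and by 12.4% in LD46, 26.3% in LD71 and 0% in the other familiar libraries. C6, at chr7:19089802-19091922, was covered by 53.6% to 100% in control and 0 to 43.1% in familiar libraries. C7, at chr1:23972779-23975121, was covered by 34.0% to 97.7% in control and 0 to 18.4% in familiar libraries. C8, at chr7:32109337-32110170, was covered by 69.9% to 94.2% in control and 0 to 65.2% in familiar libraries, with LD17 at 0%. None of these 4 overlapped between the groups.

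Region C3, at chr11:15753483-15753978, was covered by 64.9% in LD43, 90.5% in LD44, 0% in LD45, 100% in LD69 and 95.2% in LD70, and by 0% in familiar libraries. LD45 is thus the control library that lacked it. The last places in this direction were tied: 13 regions had the same p, and each of the 13 was covered by 100% in 3 control libraries and 0% in the other 7, with no peak in any library labelled 120. C9, at chr11:15478109-15478310, and C10, at chr14:4184483-4185025, are the first of these in file order.

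Across these 20 regions, 9 had no overlap between the groups, 2 of them higher and 7 lower in familiar fish. Over all tested regions, 79 (0.149%) were higher and 59 (0.111%) lower without overlap. A choice by small p on the same libraries favours regions without overlap, so the 9 are no separate result. They were short, from 202 to 2343 bp, and lay on 12 chromosomes. The direction was the same within library numbers 43 to 59 (2 familiar, 3 control) in 20 of 20 and within numbers 69 to 80 (2 against 2) in 20 of 20. Since the regions were picked on the same libraries, this follows largely from the choice. In regions without overlap, or with a whole group at 0%, no subset of libraries can reverse the direction. LD18 had no covered base in any of the 20. Its list touched only 5043 of all 52979 regions, so this says little about the 20.

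**Figure D4:**
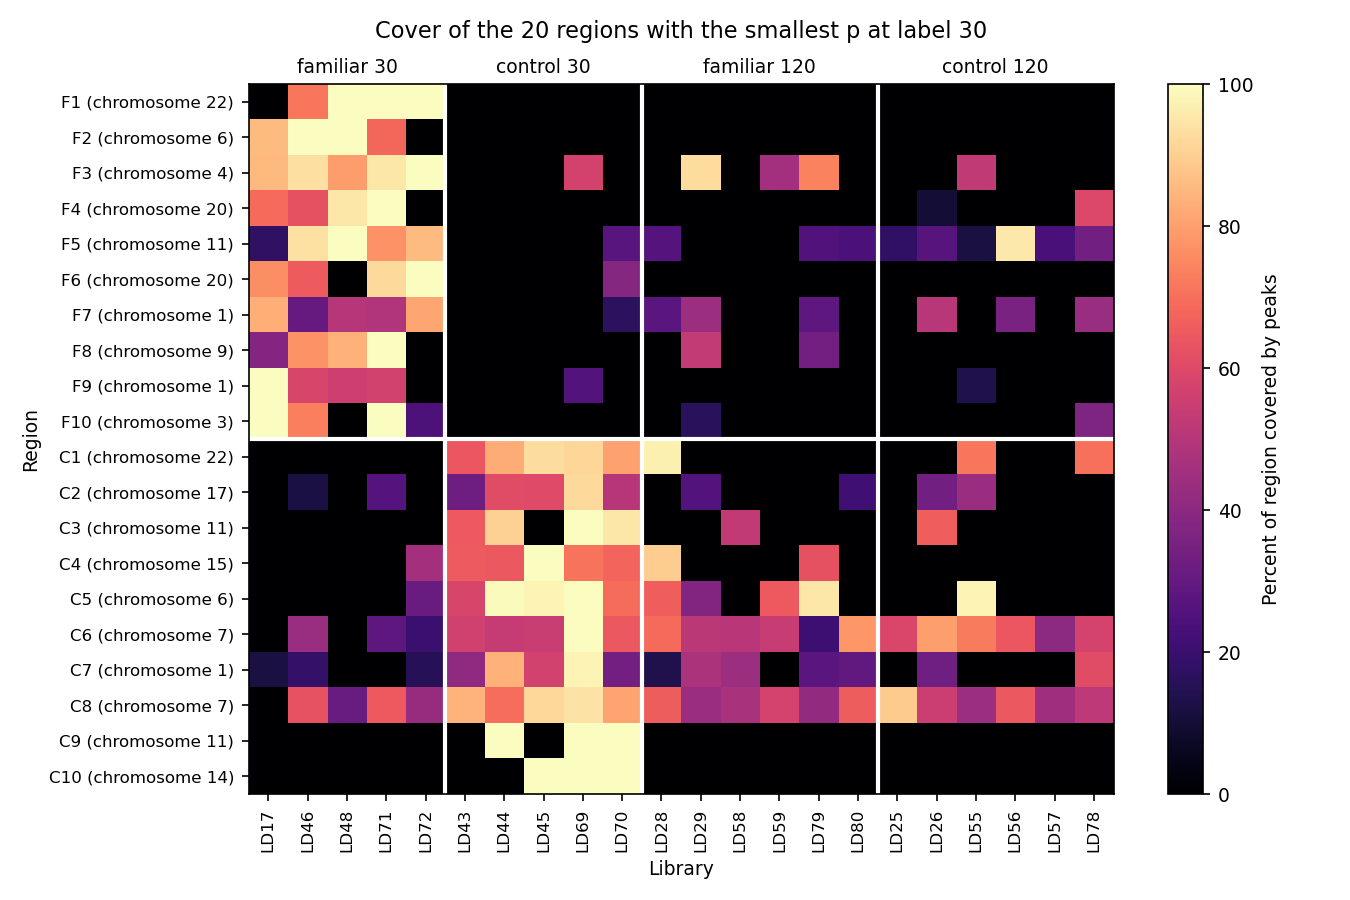
Percent of each region covered by peaks (colour, 0 to 100%) for the 20 regions F1 to F10 and C1 to C10 (rows) in the 22 kept libraries (columns), grouped by treatment and time label. Regions F1, F2, F6, C9 and C10 are at 0% in all 12 libraries labelled 120. Pooling the spread over both time labels favours such regions in the choice.

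Peaks in the 20 regions were mostly among the weaker ones of their own lists. Ranked by the authors' q value within its list, the strongest peak of a region stood at a median percentile of 7.37 (F2) to 87.6 (C10) over the libraries of the group with more cover, where 100 is the strongest peak. This median was above 50 in 4 of 20 regions: F9, C5, C8 and C10. No rank is given here for other regions of like length and presence, so low ranks cannot be called particular to these 20. The fold enrichment over background deposited by the authors ran from 2.04 to 6.14 in these peaks. Distances to the nearest region present in all 10 libraries ran from 0.766 kb (F9) to 209 kb (F2), with a median of 16.8 kb, against 21.0 kb over all tested regions not themselves present in all 10.

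Presence in every library of a group and in none of the other gave 13 regions, a set chosen after the values were seen. Of all regions, 0.0113% were present in this way in familiar and 0.0132% in control fish. In the 6 present in familiar fish, peaks also touched the region below the 50% mark in controls. The one with the smallest p of these 6, at chr1:13640431-13642744 and 2314 bp long, was covered by 59.6% in LD17, 100% in LD46, 94.7% in LD48, 89.8% in LD71 and 68.97% in LD72. Controls had 46.9% in LD43, 0% in LD44, 0% in LD45, 38.4% in LD69 and 0% in LD70, and the limma adjusted p was 0.929. The others lay at chr15:16342134-16343145, at chr15:11333509-11334633, at chr21:7496331-7497935, at chr10:22997897-22999389 and at chr16:24244362-24245282.

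Of the 7 present in control fish alone, 4 are C1, C4, C5 and C6. Another, at chr21:2070561-2073220 and 2660 bp long, was covered by 73.5% in LD43, 86.0% in LD44, 64.2% in LD45, 75.6% in LD69 and 70.1% in LD70. Familiar libraries had 13.9% in LD17, 28.3% in LD46, 24.7% in LD48, 42.5% in LD71 and 38.5% in LD72. The remaining regions lay at chr24:5269955-5270895 and at chr18:3247227-3248512. At the latter the means were 35.4% ± 9.63 and 61.0% ± 10.02 (SD, n = 5 each), so that values on either side of the 50% mark made up the contrast.

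Regions of 10 kb or longer spanned a narrower range of differences than short regions. Such a region can hold several peaks of a library, so its length is not that of a single peak. The region of 10 kb or longer with the smallest p was 10301 bp long, at chr1:10716725-10727025. Familiar libraries covered 58.1% in LD17, 71.2% in LD46, 77.9% in LD48, 63.9% in LD71 and 65.7% in LD72. Controls covered 36.0% in LD43, 40.6% in LD44, 68.3% in LD45, 42.6% in LD69 and 45.3% in LD70, so that LD45 lay within the range of the familiar libraries and the other 4 below it. The difference was 20.8 points with an SE of 8.27 (adjusted p from limma = 1). A 16900 bp region at chr5:15201263-15218162 was covered by 69.99% to 89.1% in familiar and 53.1% to 67.7% in control libraries, without overlap (limma adjusted p = 1). Among regions of this length with less cover in familiar fish, that with the smallest p lay at chr8:12927829-12938027. It was covered by 47.3% to 92.7% in familiar and 78.99% to 99.7% in control libraries, with overlap. Its difference was -21.4 points with an SE of 11.7, and the next in that direction, at chr2:16751425-16771625, differed by -23.9 points with an SE of 13.6 (adjusted p from limma = 1 for both). These 4 regions were chosen after their values were seen. In the group with more cover, their strongest peaks were 1842 to 5614 bp wide on chromosome 1 and 1359 to 8678 bp on chromosome 5. On chromosome 8 the widths were 6161 to 10167 bp, and on chromosome 2 they were 2543 to 22945 bp. Of the 79 regions higher in familiar fish without overlap, 5 (6.33%) were 10 kb or longer, and of the 59 lower ones 0 (0%). Over all tested regions the share was 3.98%, so these counts are too small to show a lean.

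The 120 libraries share no sample with those labelled 30 and gave the named regions mixed directions. Of the 10 regions F1 to F10, 2 had higher cover in familiar fish at 120, 3 had no peak in any library labelled 120, and 5 had lower cover. Of C1 to C10, 5 had lower cover in familiar fish at 120, 2 had no peak and 3 had higher cover. The p behind the choice used a spread pooled with the libraries labelled 120. Regions without a peak there were thus favoured by the choice. No region of the 20 had an unadjusted limma p under 0.05 at 120. Of all tested regions, 0.703% were higher and 3.65% lower at that level. The 5 regions without a peak at 120 could not reach it, so none among 20 says little. The widest difference there was in C5, covered by 43.98% ± 38.7 (SD, n = 6) in familiar and 16.3% ± 39.9 (SD, n = 6) in control libraries, the reverse of the order at 30. F3 kept its order, with 35.4% ± 41.6 against 8.73% ± 21.4 (SD, n = 6 each, limma adjusted p = 0.968).

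Among all 912 regions higher in familiar fish at 30 at an unadjusted p under 0.05, 10 (1.10%) were also higher at 120 at that level, where 0.703% of all tested regions were. A further 60 (6.58%) were lower at 120, against 3.65% of all tested regions. Among the 674 lower at 30, 45 (6.68%) were lower again at 120 and 7 (1.04%) were higher. The model gives a region 1 estimate of spread for both time labels. Choosing a small p at 30 therefore favours a small p at 120 too, so these shares are not independent of the choice. At 120 the median difference over all tested regions was -4.13 points, with 372 regions higher and 1930 lower at an unadjusted p under 0.05. This rests in part on the familiar library LD58: without LD45 and LD48 the median was -4.13 points, and without LD58 as well it was -1.16 points, with 853 higher and 1446 lower. With covered length as a covariate the median was -0.758 points. Whether the familiarity difference itself changed with the time label was tested as an interaction: 0 regions (0%) passed at a limma adjusted p under 0.05, and 2194 (4.15%) had an unadjusted p under 0.05. Without LD17 the interaction passed in 1 region, F1, and without LD72 in 1 region, F2. Neither region had a peak in any library labelled 120, so the interaction there repeats the difference at 30. The library left out was in each case the familiar library without a peak, which narrows the spread by construction.

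**Figure D5:**
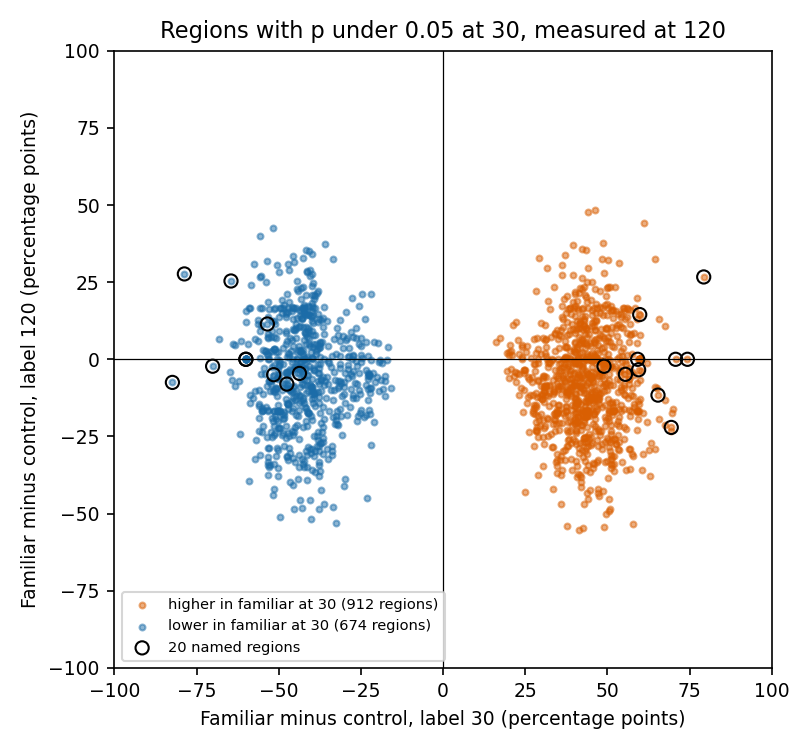
Familiar minus control cover in percentage points at the time label 30 (horizontal axis) and 120 (vertical axis) for regions with an unadjusted limma p under 0.05 at 30, orange for the 912 higher and blue for the 674 lower in familiar fish. Circles mark the 20 named regions; values at 120 lie on both sides of 0 in either set.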

How the data were processed

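H3K27ac CUT&RUN peak lists of adult cleaner wrasse forebrain were used, 10 of them labelled 30. Tools listed in the submitters' processing notes are MACS2, Bowtie2, Picard, SAMtools, FastQC and Trimmomatic 0.39. For the build, settings and input control: not given in the sources used here. The authors deposited 1 list per library, so replicates were not pooled. The score column the authors deposited repeats their -log10 q times 10, cut to a whole number, in nearly all rows. The deposited fold enrichment is a ratio over background, and fold and q values served for ranks and filters inside each list alone. No listed -log10 q was below 1. The members, regions and tests were chosen with earlier results of these data known.

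LD18 was left out because its peak number was under 0.5 times the median of 45859. Regions were formed from bases covered in at least 3 of the 22 kept libraries by joining across gaps no wider than 200 bp and keeping lengths of 200 bp or more. The mitochondrial genome was left out. Percent cover was fitted with limma 3.58.1 in R 4.3.3, 4 groups in 1 model, with mean cover limited to 5 to 95% and Benjamini-Hochberg adjustment. Cover is bounded at 0 and 100%, which limma's model does not describe: a group with all values at 0% has no spread of its own. On simulated data the fit called a minority of the changed regions and made false calls above the nominal share. It returned the differences put in, which follows from the model. Each region's values were shuffled over the libraries, which removes differences between whole libraries. Changes were put only into regions of middling mean cover. Calls of 1 or a few regions are therefore uncertain, and so is their absence. The text names 10 regions per direction by smallest p, and each region present in all 5 libraries of a group with no covered base in the other. Exact permutation tests were two-sided and adjusted within 4 list measures, 4 length classes or 24 chromosomes. Scripts ran in Python 3.11.15 with pandas 2.3.3, scipy 1.17.1 and numpy 2.4.6. Promoter cover was planned but not run, since no annotation was used here. Alternatives are given at the end.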

Additional observations from a re-analysis of the deposited data

Results flagged for a closer look

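Values that lay far from the rest of their group were looked for in 101 sets of 5 or 6 libraries with any spread, where about 1 in 20 would be marked without cause. That rate does not hold for the named regions, where a lone cover above 0% among zeros is always marked. Familiar library LD18 lay far from the others of its group, with 7077 peaks, 4.70 Mb covered, a median width of 520 bp and 0 peaks of 10 kb or longer.

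Control library LD45 was marked in 6 sets. Its median Jaccard index was 0.542 and its cover of regions of 10 kb or longer 71.5%. Its share of covered length was 3.93% on chromosome 8, 4.005% on chromosome 16 and 4.73% on chromosome 17, and it covered 100% of region C4.

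Among familiar libraries, LD17 had the lowest share on chromosome 2 (4.57%), and LD72 on chromosome 9 (5.73%), LD46 on chromosome 10 (4.796%) and LD71 on chromosome 12 (4.74%) had the highest. LD17 covered 0% of region F1 and 17.3% of F5, below the other familiar libraries. LD72 covered 45.99% of C4 and 31.4% of C5, where the other 4 had 0%. Among controls, LD69 covered 57.3% of F3, 25.9% of F9 and 100% of C6. LD70 covered 27.1% of F5, 38.5% of F6 and 16.7% of F7. In these F regions the other 4 control libraries had 0%. The marks in these F regions, and those of LD72 in C4 and C5, thus follow in part from how the regions were chosen. A cause was not tested for any of these values.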

How the results depend on the processing

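The count of 0 regions past the adjusted threshold held under the other alternatives run, with these exceptions. It was 1 (C1) when only the 10 libraries labelled 30 were fitted. Leaving out 1 library gave 0 to 3: 1 without LD17 (F1), without LD48 (F6) or without LD44 (chr7:21095374-21095707, chosen after its values were seen), and 3 without LD72 (F2, F4 and F9). Alternatives added after the data were seen gave 1 without LD45 and LD48 (F6) and 2 without LD45, LD48 and LD58 (F6 and C3). The interaction count was 0 to 1 over left-out libraries and 0 in each other alternative that gave it a value. Regions at an unadjusted p under 0.05 numbered 823 of 37481 tested for bases covered in at least 11 libraries. They were 381 of 17928 when peaks needed a -log10 q of 5 or more, against 1586 of 52924 in the main fit. Fewer regions were tested in both alternatives, so the counts alone overstate the drop. Of 52924 regions, the count was 245 by Fisher's exact test and 1584 to 2176 over left-out libraries. Adding LD18 gave 304 with higher and 1440 with lower cover in familiar fish, of 52924 tested. At the stricter q there were 176 higher and 205 lower of 17928. The main fit had 912 higher and 674 lower of 52924, so the lean turned in both alternatives. The 20 named regions kept their direction in each alternative that gave them a value, which 17 lacked when regions were rebuilt at the stricter q or from at least 11 libraries. Since they were picked for a small p on the same libraries, the kept direction follows in part from the choice. Leaving out libraries could not reverse it in regions without overlap or with a whole group at 0%.

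Regions present in all familiar and untouched in control libraries numbered 0, and 1 at a 25% mark, from at least 11 libraries or from the 10 libraries labelled 30, 4 without LD45 and LD48, and 0 to 9 over left-out libraries. In the reverse direction there was 1, against 0 at a 75% mark, at the stricter q or from at least 11 libraries, 4 without LD45 and LD48, and 1 to 3 over left-out libraries. Counts here are out of 52979 regions, or 17960 at the stricter q. Regions built from at least 11 libraries numbered 39394, and those built from the 10 libraries labelled 30 numbered 47265. Regions without overlap were 17 higher and 20 lower of 17960 at the stricter q, against 79 and 59 of 52979 in the main set. Without LD45 and LD48 they were 328 and 414. Over left-out libraries they were 155 to 311 higher and 114 to 269 lower, where a smaller group separates more easily.

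List measures passed under no alternative, and their signs turned. Within library numbers 43 to 59 (2 against 3) and 69 to 80 (2 against 2) the smallest exact permutation p is 0.2 and 0.333, so neither could pass. With 1 library left out, or without LD45 and LD48, a single measure at the smallest possible p would not pass after adjustment. The lack of a pass in these settings thus says little. With LD18 the familiar minus control difference was -5431 peaks, -13.3 Mb and -180.1 peaks of 10 kb or longer. At the stricter q it was -237 peaks, -0.907 Mb and 2.40 bp of median width. Within library numbers 69 to 80 it was -4.19 Mb and -136.5 long peaks, and without LD45 and LD48 -0.510 Mb and -54 long peaks. Over left-out libraries it ran from 482 to 1635 peaks, -0.0518 to 3.04 Mb, -15.9 to 10.03 bp and -26.1 to 55.2 long peaks.

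For mean cover under 1 kb, 1 to 3 kb, 3 to 10 kb and 10 kb or longer the differences were -4.33, -7.27, -9.09 and -11.1 points with LD18, and -2.66, -2.12, -2.50 and -2.88 within numbers 69 to 80. At the stricter q the first 3 were -0.814, -0.971 and -0.126, and without LD45 and LD48 the last 2 were -0.575 and -1.19. Over left-out libraries they ran from -0.812 to 1.85, 0.654 to 2.87, 0.367 to 3.002 and -0.381 to 2.58. No chromosome share passed under any alternative, which says little: the same floors hold, and with 5 against 5 several of 24 chromosomes would have to reach the smallest p together. The cause of these turns was not tested. No paired analysis was possible because library numbers are not shared between groups. A fit with the range of library numbers as a block, which pairs no samples, called 0 regions (lowest adjusted p from limma 0.275), with 973 higher and 860 lower before adjustment. Read depth is unknown, and cover cannot show a change of signal height within peaks.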

Other observations

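Regions higher in familiar fish at 30 at an unadjusted p under 0.05 were in part adjacent along the genome. Of the 912, 70 (7.68%) had an adjacent tested region of the same direction and 10 (1.10%) one of the opposite direction. Among the 674 lower regions these were 28 (4.15%) and 10 (1.48%). Over all tested regions, 3.38% had a neighbour of the higher and 2.51% of the lower set. Pieces of a domain split by a gap count as neighbours here. There were 2 runs of 3 such regions, both higher in familiar fish, at chr8:22674374-22685782 and chr16:8615105-8645089.

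The 1 Mb stretch with the most regions higher in familiar fish was on chromosome 8 between 23 and 24 Mb, chosen after the values were seen. Of its 125 tested regions, 10 were higher and 0 lower at an unadjusted p under 0.05, where 1.72% and 1.27% of all tested regions were. Mean cover over the 125 regions was 52.6% in LD17, 59.4% in LD46, 58.6% in LD48, 61.3% in LD71 and 38.0% in LD72. Controls had 52.2% in LD43, 39.5% in LD44, 47.5% in LD45, 42.6% in LD69 and 42.5% in LD70. LD72 lay below every control, and the other 4 familiar libraries above each control. At 120 the means were 45.6% ± 15.2 (SD, n = 6) in familiar and 51.8% ± 5.76 (SD, n = 6) in control libraries. LD58 had 21.8%, and without it the familiar mean was 50.4% ± 10.9 (SD, n = 5), which moved familiar minus control from -6.17 to -1.41 points (an alternative added after the data were seen). The next stretches were chromosome 6 between 32 and 33 Mb, with 7 higher and 0 lower of 71 and region F2 among its regions, and chromosome 20 between 2 and 3 Mb, with 7 lower and 1 higher of 153.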
